A study of Mus musculus with 12 samples.

Results

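The data described here are the transcriptional response to Pam3 of mouse alveolar-like macrophages kept in TGFβ, measured as 3 Pam3+TGFβ libraries against 3 TGFβ libraries. These 6 libraries were chosen by their labels and are 6 of 12 in the series. The cells are FLAMs, macrophages grown out of mouse fetal liver that resemble alveolar macrophages, the resident phagocytes of the airspaces. All 4 groups of the series received recombinant mouse GM-CSF at 30 ng/ml. The TGFβ group also received recombinant human TGFβ1 at 20 ng/ml and no Pam3. The Pam3+TGFβ group received the same GM-CSF and TGFβ1, plus the lipopeptide Pam3CSK4 (Pam3) at 25 ng/ml for 18 hours before RNA was taken. The other groups, untreated cells and cells with Pam3 alone, had GM-CSF but no TGFβ and serve here as a second response to compare with. Their libraries also enter the fit of all 12 libraries, and so the estimate of spread behind each test. The labels give no mouse strain, age or sex, and they do not say whether the 3 libraries of a group came from separate cultures. The p-values below therefore measure the spread between these libraries, which may be technical. The libraries are of bulk cells, so fewer cells of a kind and less RNA per cell cannot be told apart.

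Pam3CSK4 imitates the triacylated lipoproteins of bacteria and is read at the cell surface by Toll-like receptor 2 (TLR2) paired with TLR1, with CD14 as a helper that passes lipopeptide on. TLR2 signals through the adaptors TIRAP and MyD88, the IRAK kinases and TRAF6 to NF-kB and to MAP kinases and AP-1, which switch on cytokine and chemokine genes and, in the same sweep, the inhibitors that end the signal. Type I interferon, induced through IRF3 and IRF7, is classically tied to TLR3, TLR4 and the nucleic acid sensors rather than to surface TLR2, and it acts back through IFNAR, STAT2 and IRF9 on a large set of antiviral genes. In the lung, alveolar macrophages depend on GM-CSF and TGFβ for their identity, which rests on PPARγ and shows in Siglec-F, carbonic anhydrase 4 and lipid-handling genes.

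Totals ran from 34036650 to 44374115 counts per library, and 14749 genes passed the count filter. At an adjusted p under 0.05, 5678 genes (38.5%) were called between Pam3+TGFβ and TGFβ, 3008 higher (20.4%) and 2670 lower (18.1%) with Pam3. "Rose" and "fell" are used below only for genes called in this way. Most changes were small, with a median log2 fold change of 0.45 among the genes that rose and -0.42 among those that fell. A log2 fold change of at least 1 in size was reached by 769 genes that rose (5.21%) and 339 that fell (2.3%), 7.51% in all, of 2 or more by 354 and 72, and of 4 or more by 130 and 6. Values of the 2 groups did not overlap in 7428 genes (50.4%). Upper-quartile scaling gave 2477 higher and 3489 lower calls, and it moved the median of all genes from -0.02 to -0.08 on the log2 scale. Small shifts in either direction therefore depend on the scaling, and changes past 1 hardly do. TGFβ replicates 1 and 3 carried more RNA without poly(A) tails (5 such RNAs summed to 356 and 634 CPM, the counts of a gene scaled to the size of its library) than the other 4 libraries (6.72 to 83.0 CPM). Mitochondrial ribosomal RNA was also higher in them, at 0.418% and 0.348% of counts against 0.068% to 0.113%, while mitochondrial messages took 3.23% to 3.66% in all 6. In a fit of only the 7 libraries of the series at or under 100 CPM of those RNAs, added after the data were seen and keeping TGFβ replicate 2 and Pam3 replicate 1 as the lone libraries of their groups, 1825 genes were called higher and 1545 lower. That fit assumes that a lone library varies like the other groups. Of the 1105 calls past a log2 fold change of 1 that it could test it called 870, from libraries that both fits share.

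**Figure D1:**
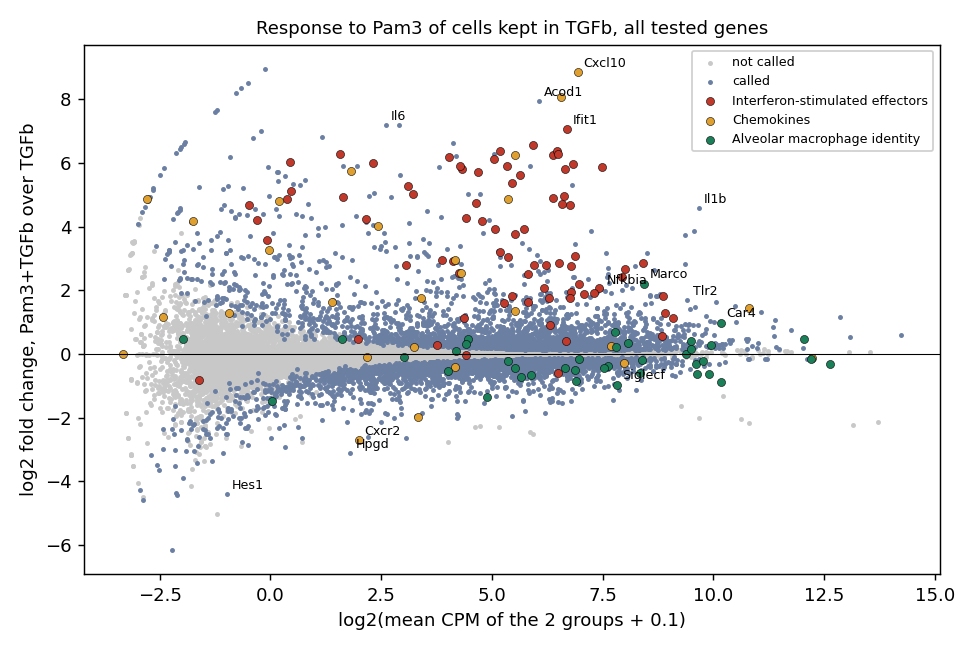
Log2 fold change of Pam3+TGFβ over TGFβ (vertical axis) against log2 of the mean CPM of both groups plus 0.1 (horizontal axis) for all 14749 tested genes, grey where not called and blue where called, with 3 gene lists in red, orange and green. Interferon-stimulated genes (red) sit almost wholly above 0, chemokines (orange) reach 8.84 with Cxcl10, and alveolar macrophage genes (green) lie on either side of 0, from -1.47 to 2.20.

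The 250 bases before the start sites of 5 genes that rose are shown, because their letters hold elements that the factors of this pathway are known to bind. The elements searched were the interferon-stimulated response element (GAAA, any 2 bases and GAAA again), an NF-kB element (GGG, any 2 bases and TTTCC) and the AP-1 element TGANTCA, which reads the same on both strands; the others were searched on both strands as well, and none of the matches shown overlaps another. Sequences run 5′ to 3′ on the strand of the gene, come from the GRCm39 assembly with start sites of the GENCODE annotation, and carry the matched letters in capitals.
Cxcl10, chr5:92496749-92496998, minus strand: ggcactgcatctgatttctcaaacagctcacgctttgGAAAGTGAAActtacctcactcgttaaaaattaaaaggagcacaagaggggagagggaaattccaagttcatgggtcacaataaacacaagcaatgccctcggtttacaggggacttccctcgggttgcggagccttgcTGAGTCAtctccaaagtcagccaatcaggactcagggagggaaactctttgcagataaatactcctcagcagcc
Ifit1, chr19:34618021-34618270, plus strand: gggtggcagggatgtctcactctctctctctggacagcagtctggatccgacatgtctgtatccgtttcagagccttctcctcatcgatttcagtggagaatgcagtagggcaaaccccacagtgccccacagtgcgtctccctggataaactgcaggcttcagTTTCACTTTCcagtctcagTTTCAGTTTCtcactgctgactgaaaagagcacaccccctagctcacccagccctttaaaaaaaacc
Cxcl3, chr5:90933712-90933961, plus strand: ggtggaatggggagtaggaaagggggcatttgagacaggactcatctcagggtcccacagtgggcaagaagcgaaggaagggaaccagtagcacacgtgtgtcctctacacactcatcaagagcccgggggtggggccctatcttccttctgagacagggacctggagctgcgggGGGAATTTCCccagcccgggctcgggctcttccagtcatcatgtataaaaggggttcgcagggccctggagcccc
Nfkbia, chr12:55539433-55539682, minus strand: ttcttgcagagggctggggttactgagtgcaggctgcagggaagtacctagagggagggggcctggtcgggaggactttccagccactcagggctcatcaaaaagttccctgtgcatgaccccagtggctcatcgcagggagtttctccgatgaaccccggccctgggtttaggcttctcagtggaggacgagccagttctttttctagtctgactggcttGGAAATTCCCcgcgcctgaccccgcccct
Mmp13, chr9:7272264-7272513, plus strand: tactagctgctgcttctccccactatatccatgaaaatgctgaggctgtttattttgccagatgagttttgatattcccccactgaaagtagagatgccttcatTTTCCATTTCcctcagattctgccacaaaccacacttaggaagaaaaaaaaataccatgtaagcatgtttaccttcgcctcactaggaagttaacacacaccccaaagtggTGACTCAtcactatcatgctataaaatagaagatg
Cxcl10 held the response element GAAAGTGAAA 213 bases before its start and the AP-1 letters TGAGTCA at 74 bases. Ifit1 held 2 response elements on the other strand, TTTCACTTTC and TTTCAGTTTC, at 86 and 67 bases. Cxcl3 had the NF-kB letters GGGAATTTCC at 75 bases and Nfkbia had GGAAATTCCC at 29 bases, while Mmp13 had TTTCCATTTC at 146 and TGACTCA at 35 bases.

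Over windows of 250 bases before to 50 bases after the start of 13485 tested genes, the interferon response element was found in 3.71%. It was in 12.9% of the 707 windows of genes that rose by at least 1 on the log2 scale and in 1.68% of the 298 windows of genes that fell by as much. Among interferon-stimulated effector genes it was in 36 of 77 windows (46.8%). The NF-kB letters were in 1.87% of all windows, in 4.53% of those of strongly raised genes and in 6 of 27 chemokine windows (22.2%). AP-1 letters were in 5.84% of all windows, in 11.5% of those of strongly raised genes and in 8 of 27 windows of protease and matrix genes (29.6%). A match of letters describes the window and does not show binding.

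TLR2 and its co-receptor rose with Pam3, and the partner receptors of TLR2 were not called. Tlr2 was at 329.7, 335 and 308 CPM in TGFβ replicates 1, 2 and 3 and at 1079, 1016 and 1032 CPM in the 3 Pam3+TGFβ libraries. All 3 values with Pam3 lay above the TGFβ values without overlap, and the log2 fold change was 1.69 (adjusted p 2.72e-18, SE 0.055). Cd14, the co-receptor, went from 33.4 ± 1.58 to 109 ± 11.4 CPM (SD, n = 3), which is 1.71 (adjusted p 4.25e-11, SE 0.095) on the log2 scale. The log2 fold changes of the partners were 0.53 for Tlr1 (adjusted p 0.0516) and -0.10 for Tlr6 (adjusted p 0.345). Of the 29 receptor and adaptor genes, 14 rose and 4 fell, with a median log2 fold change of 0.20 against -0.02 over all tested genes.

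Among adaptors and kinases, Myd88 rose by 0.95 on the log2 scale and Map3k8, the kinase that links TLRs to ERK, by 0.71. Traf6 rose by 0.37, whereas Irak1 and Irak4 fell by 0.15 and 0.16. The bridging adaptor Ticam2 fell by 0.14, a call lost in several alternatives, among them the fit without TGFβ replicate 2 (adjusted p 0.148). All 4 decreases in the list were small, and none was called in the 7-library fit, while the count fell to 1 without TGFβ replicate 2 or Pam3+TGFβ replicate 2, and to 2 without Untreated replicate 3, any 1 Pam3 replicate or Pam3+TGFβ replicate 1. Irak3, which encodes the inhibitory kinase IRAK-M, moved most of the list, from 23.5, 27.0 and 26.4 to 128, 126 and 124 CPM, a log2 fold change of 2.30 (adjusted p 1.16e-19, SE 0.063). Of the other Toll-like receptors, the endosomal RNA receptors Tlr7 and Tlr3 rose by 0.86 and 0.79, Tlr8 fell by 0.15, and Tlr4, at 276 and 262 CPM, was not called.

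Of 23 NF-kB genes 18 rose and 1 fell, with a median log2 fold change of 0.98. All 5 subunits rose, from 0.31 for Rela to 1.87 for Relb and 1.94 for Nfkb2, the subunits of the alternative pathway. Of 13 inhibitors and feedback genes 11 rose, with a median of 1.87. Nfkbia, which encodes IκBα and is itself an NF-kB target, was at 70.6, 69.8 and 68.0 CPM with TGFβ and at 291, 283 and 276 CPM with Pam3+TGFβ. Each Pam3+TGFβ library was far above each TGFβ library, and the log2 fold change was 2.03 (adjusted p 3.06e-20, SE 0.052). Tnfaip3, the ubiquitin-editing enzyme A20, rose from 16.3, 15.6 and 15.8 to 128, 117 and 116 CPM, by 2.92 (adjusted p 4.82e-21, SE 0.066). Larger steps from lower levels were seen for Nfkbiz, at 3.39, and for Tnip3, a partner of A20, which rose from 0.769 ± 0.153 to 10.9 ± 0.85 CPM (SD, n = 3). The upstream kinase Ikbke rose by 1.21, and Map3k14, the kinase of the alternative pathway, was the only member that fell, by 0.68; upper-quartile scaling added 1 further lower call.

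Of 23 tested AP-1 and immediate early factors and MAP kinase phosphatases, 16 rose and 3 fell, with a median log2 fold change of 0.75. Atf3, a stress-induced repressor of TLR genes, rose by 2.34, from 10.0 ± 0.514 to 50.7 ± 1.32 CPM (SD, n = 3). Jun, Junb and Batf3 rose by 0.99, 1.28 and 1.55, and the small Maf factors Maff and Mafk by 1.06 and 1.03. Fosl1 was called at 2.10, but its libraries overlapped (0.166, 0.37 and 0.0262 against 1.45, 0.723 and 0.316 CPM). The call was lost without TGFβ replicate 1, TGFβ replicate 3 or Pam3+TGFβ replicate 1, with adjusted p values of 0.0659, 0.0967 and 0.182, and its log2 fold change was 3.06 without TGFβ replicate 2 and 1.13 in the 7-library fit, where it was not called (adjusted p 0.39). Egr2 fell by 0.45. Of the phosphatases that switch MAP kinases off, Dusp4 rose by 2.51, Dusp16 by 0.98 and Dusp1 by 0.75, while Dusp5 and Dusp7 fell by 0.26 and 0.39.

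Chemokine ligands, which draw other leukocytes to a site, included Cxcl10 and Cxcl3, both among the 10 largest increases that a rule on size, counts and spread picked. Of the 27 tested chemokine and chemokine receptor genes 18 rose and 4 fell, with a median log2 fold change of 1.62, or 1.44 with Ccl7 and Ccl12, near no counts with TGFβ, set to their lower bound. Only 10 of the higher calls were left when at least 10 counts were required in every library, since that filter removes genes nearly silent without Pam3. Cxcl10, the interferon-inducible attractant of activated T cells, has 4 exons at chromosome 5, 92494497 to 92496748. It was at 0.332, 1.01 and 0.21 CPM with TGFβ and at 263, 256 and 215 CPM with Pam3+TGFβ. The 3 values with Pam3 were far above all others, with a log2 fold change of 8.84 (adjusted p 6.55e-08, SE 0.36), or 9.79 without TGFβ replicate 2, the highest of the 3 libraries without Pam3, and 7.90 in the 7-library fit, which keeps that one alone.

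Cxcl1, Cxcl2 and Cxcl3 attract neutrophils. Cxcl3 (chromosome 5, 90933962 to 90937459) was at 0.858, 0.667 and 0.576 CPM with TGFβ and at 231, 165 and 167 CPM with Pam3+TGFβ, a log2 fold change of 8.07 (adjusted p 9.17e-08, SE 0.34). Cxcl2 rose from 1.20 ± 0.253 to 90.4 ± 12.9 CPM (SD, n = 3) and Cxcl1 from 0.0718 ± 0.0853 to 2.04 ± 0.365 CPM. Cxcl5, another attractant of neutrophils, had no count in any of the 6 libraries. Cxcl16, a scavenger receptor and chemokine, rose by 2.55, and Cxcl14 was the only CXC ligand that fell, by 0.28. Cxcl11, which belongs with Cxcl10, was not tested for want of counts: it had 0 in each TGFβ library and 7, 3 and 7 counts with Pam3+TGFβ.

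Of 10 CC ligands, 8 rose and none fell. Ccl3, a macrophage inflammatory protein that recruits leukocytes, was at 3.07, 2.49 and 2.72 CPM with TGFβ and at 84.2, 82.6 and 72.7 CPM with Pam3+TGFβ, a log2 fold change of 4.85 (adjusted p 9.64e-14, SE 0.13). Its relative Ccl4 rose by 4.01. Ccl2, the monocyte attractant, went from 0.111, 0.0741 and 0.183 to 7.48, 6.64 and 6.01 CPM, by 5.74 (adjusted p 3.32e-18, SE 0.19), or by 6.42 in the 7-library fit. No TGFβ library reached 0.2 CPM, and no Pam3+TGFβ library reached 10 CPM. Ccl9 rose by 1.44 from an already high 957 ± 60.4 to 2602 ± 144 CPM (SD, n = 3). Ccl17 and Ccl22, ligands of CCR4, rose by 1.36 and 1.77. The most abundant CC ligand, Ccl6, was at 5051 and 4590.3 CPM and was not called. Ccl5 had 0 counts in each TGFβ library and 8, 1 and 1 with Pam3+TGFβ, and did not pass the filter on counts. Without the filter its adjusted p was 0.0309.

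Chemokine receptors went both ways, with 3 of 7 higher and 3 lower. Ccrl2, a non-signalling receptor that presents chemerin, rose by 2.96. Cxcr2, the receptor of Cxcl1, Cxcl2 and Cxcl3, was at 6.48, 6.42 and 7.34 CPM with TGFβ and at 1.05, 0.964 and 1.06 CPM with Pam3+TGFβ, and fell by 2.71 (SE 0.28, adjusted p 3.8e-08). Cxcr4, a retention receptor, fell by 1.97, from 16.0 ± 1.11 to 4.10 ± 0.622 CPM (SD, n = 3). Both receptors were lower in each Pam3+TGFβ library than in any TGFβ library.

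**Figure D2:**
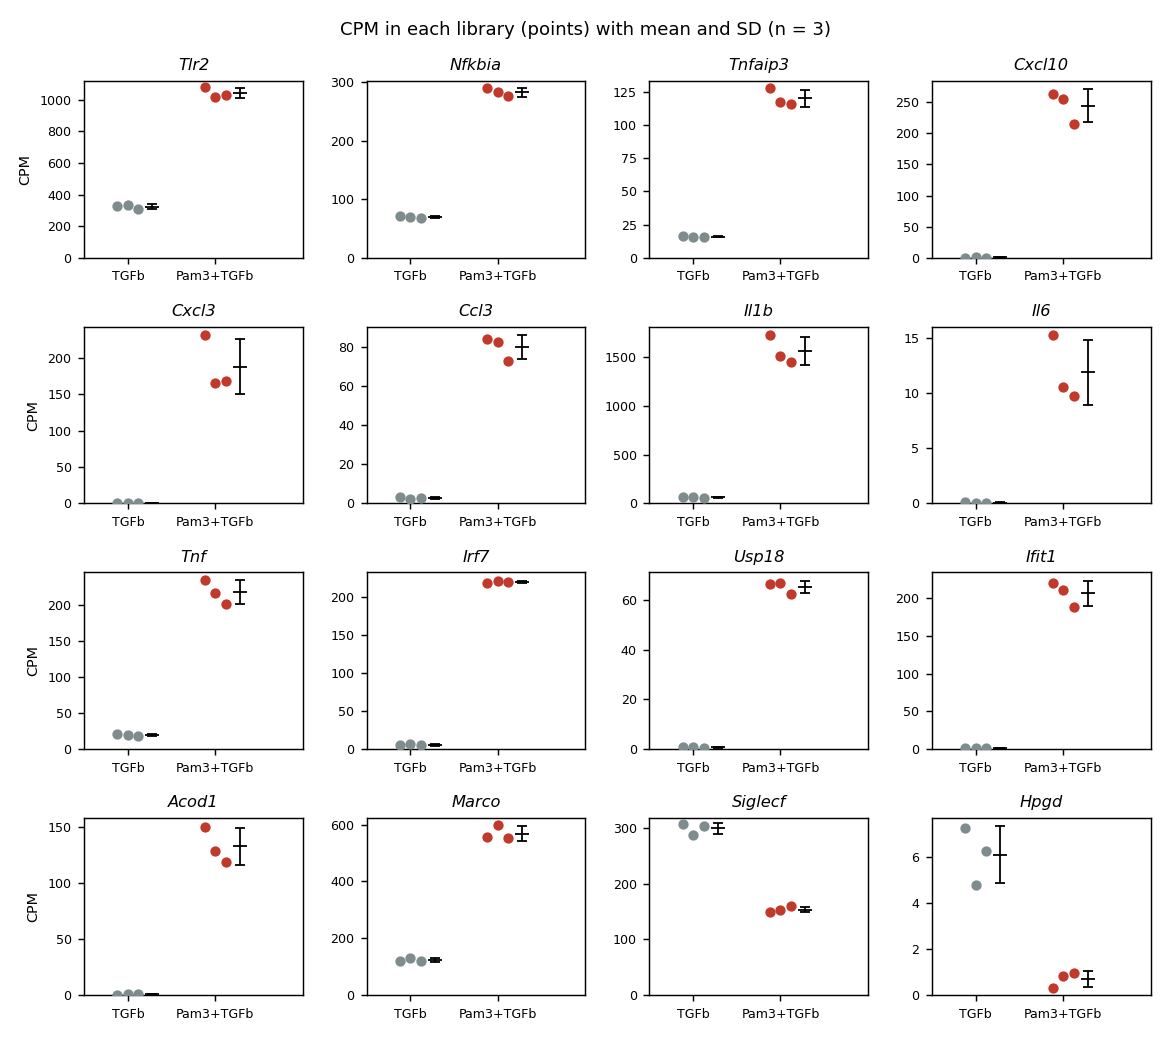
CPM (vertical axes, each from 0) of 16 genes in the 3 TGFβ libraries (grey) and the 3 Pam3+TGFβ libraries (red), with the mean and SD (n = 3) as a bar beside the points. Libraries of a group lie close together compared with the distance between groups: Tlr2 is near 324 and 1042 CPM, Cxcl10 near 0.518 and 244 CPM, and Siglecf and Hpgd are lower with Pam3.

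In the interleukin-1 family the genes of both IL-1 ligands rose to over 1000 CPM. Il1b was at 68.0, 69.0 and 60.0 CPM with TGFβ and at 1727, 1512 and 1449 CPM with Pam3+TGFβ, a log2 fold change of 4.57 (adjusted p 9.14e-08, SE 0.20). Il1a rose in parallel, from 96.8 ± 10.2 to 1418 ± 106 CPM (SD, n = 3), by 3.87. Il1rn, which encodes the receptor antagonist, was already at 515 CPM and rose by 1.65 to a level like that of Il1b. Il1f6, the gene of IL-36α, rose by 5.90, from 0.122 ± 0.0309 to 7.48 ± 0.342 CPM, and Il1f9, the gene of IL-36γ, by 2.58. Il18 went the other way and fell by 0.22.

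Of 10 tested genes in the family of IL-6, IL-10 and IL-12, 6 rose and 2 fell. Il6 was at 0.138, 0.0494 and 0.0524 CPM with TGFβ and at 15.3, 10.6 and 9.80 CPM with Pam3+TGFβ, a log2 fold change of 7.18 (adjusted p 1.4e-12, SE 0.37). In the 7-library fit it rose by 7.81. Il12b, the shared subunit of IL-12 and IL-23, had 0, 1 and 0 counts with TGFβ and 56, 63 and 57 with Pam3+TGFβ, at least 19.5-fold higher against a floor of 3 counts per library. Il23a, its partner in IL-23, was too low to pass the filter, at 0 counts in each TGFβ library and at 21, 14 and 7 with Pam3+TGFβ, at least 4.85-fold higher against the same floor (adjusted p 0.000654 without the filter). Il6ra and Il6st, the receptor chains for IL-6, fell by 0.77 and 0.84. Il10 had no count in any of the 6 libraries, and Lif and Osm were not called at -0.09 and -0.10.

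Tnf, the first cytokine of the NF-kB response, was at 20.6, 20.2 and 18.2 CPM with TGFβ and at 234, 217 and 201 CPM with Pam3+TGFβ, a log2 fold change of 3.46 (adjusted p 1.69e-15, SE 0.092). In the TNF family 9 of 13 genes rose and none fell, with a median of 1.46. Tnfsf15, the gene of TL1A, rose by 6.21, from 0.747, 0.123 and 0.603 to 42.0, 32.3 and 33.6 CPM, and by 8.14 in the 7-library fit, whose lone TGFβ library is the lowest of the 3. Cd40, the receptor by which T cells activate macrophages, had 3, 1 and 0 counts in the TGFβ libraries and was at 4.48, 4.58 and 3.79 CPM with Pam3, at least 54.5-fold higher. Tnfsf10, the death ligand TRAIL and an interferon target, rose by 3.50. Of the receptors for TNF, Tnfrsf1b rose by 1.46 and Tnfrsf1a by 0.43. Among growth factor genes, Csf1 rose by 1.89 (2.74 in the 7-library fit) and Csf2rb, the signalling chain of the GM-CSF receptor, by 0.83 to 3349.6 CPM. Over all 48 cytokine and receptor genes tested, 27 rose and 6 fell, with a median of 0.69.

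Interferon-β was found at few counts and only in the Pam3+TGFβ libraries. Ifnb1, the gene of interferon-β, had 0 counts in each TGFβ library and 11, 18 and 10 counts in the Pam3+TGFβ libraries, at least 4.36-fold higher against the floor of 3 counts per library. It did not pass the filter on counts, and without the filter its adjusted p was 0.00246. No count of Ifnb1 was found in the 6 libraries without TGFβ either, with or without Pam3. The receptor genes Ifnar1 and Ifnar2 rose by 0.58 and 0.27, and Ifngr1 fell by 0.24. Of the 37 induction and JAK-STAT genes tested, 24 rose and 5 fell, with a median of 0.58. The lower calls numbered 9 with upper-quartile scaling and 2 in the 7-library fit.

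Irf7, the factor that amplifies type I interferon, was at 4.93, 6.84 and 4.82 CPM with TGFβ and at 218, 221 and 220.4 CPM with Pam3+TGFβ, a log2 fold change of 5.31 (adjusted p 2.66e-08, SE 0.21). Its 3 values with Pam3 lay within 3 CPM of each other and far above all values without. Irf9, Irf1 and Irf5 rose by 1.92, 1.47 and 0.55, Irf3 was not called at -0.12, and Irf8 fell by 0.39. Stat2, which carries the interferon signal with Irf9, went from 87.8, 98.9 and 98.1 to 421, 428 and 427 CPM, by 2.16 (adjusted p 4.82e-21, SE 0.049). Stat3 fell by 0.19, and Stat5a, Stat5b and Stat6 were not called.

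Sensors of viral RNA rose together. Ddx58, the gene of RIG-I, rose by 3.16, from 38.6 ± 2.97 to 344 ± 2.87 CPM (SD, n = 3), Ifih1, the gene of MDA5, by 2.63 and Dhx58, the gene of LGP2, by 2.49. Zbp1, a sensor of Z-form nucleic acid, rose by 3.49 and Cgas by 1.18. The adaptors behind them did not rise, since Mavs fell by 0.19 and Sting1 by 0.14. Of 6 inhibitors of interferon signalling 4 rose and none fell, with a median of 1.72. Usp18, which blocks IFNAR, was at 0.858, 1.01 and 0.603 CPM with TGFβ and at 66.5, 66.7 and 62.3 CPM with Pam3+TGFβ, a log2 fold change of 6.29 (adjusted p 8.47e-13, SE 0.21). Socs1 and Socs3 rose by 3.19 and 3.30, the latter from 10.5 ± 1.06 to 104 ± 5.99 CPM (SD, n = 3).

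Interferon-stimulated effector genes, the antiviral arm behind IFNAR, rose almost throughout. Of 77 tested genes 74 rose and 1 fell, against 20.4% and 18.1% of all genes, and the median log2 fold change was 3.57 against -0.02. Ifit1, which binds foreign RNA caps, was at 1.05, 1.98 and 1.55 CPM with TGFβ and at 219.9, 211 and 188 CPM with Pam3+TGFβ, a log2 fold change of 7.07 (adjusted p 6.36e-09, SE 0.24). Ifit2, Ifit3 and Ifit3b rose by 5.96, 6.25 and 6.37. Among the 2-5 oligoadenylate synthetases, sensors of double-stranded RNA, the increases ran from 2.75 for Oas1a to 6.19 for Oasl1. Of the 13 IFIT and OAS genes together 12 rose and 1 fell, with a log2 fold change of -0.59.

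The other antiviral genes gave 38 higher of 40. Mx1, a GTPase that traps viral nucleocapsids, rose by 6.56, from 1.26 ± 0.713 to 121 ± 2.48 CPM (SD, n = 3), and Rsad2, the gene of viperin, by 6.38, from 2.09 ± 0.127 to 174 ± 6.14 CPM. Isg15, a ubiquitin-like modifier, rose by 5.91, its activating enzyme Uba7 by 0.90 and the ligase gene Herc6 by 1.83. Slfn5 and Slfn8 rose by 5.88 and 4.95, and Parp14 by 2.85. Ifitm3, which blocks viral entry, was at 0, 0.0741 and 0.131 CPM with TGFβ and at 5.93, 6.16 and 4.86 CPM with Pam3+TGFβ, a log2 fold change of 6.27 (adjusted p 3.82e-15, SE 0.30), or 7.04 without TGFβ replicate 3. The other 2 tested IFITM genes were not called, at -0.82 for Ifitm1 and -0.04 for Ifitm2. Samhd1, at 372 CPM before Pam3, rose by only 0.56.

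All 15 interferon-inducible GTPases rose. Increases in the guanylate-binding proteins ran from 0.47 for Gbp8 to 4.92 for Gbp4, and Irgm1, Irgm2 and Igtp, which regulate attack on pathogen vacuoles, rose by 3.07, 2.79 and 2.79. Iigp1 rose by 5.11 from 0.0277, 0.173 and 0 CPM, or by 7.20 without TGFβ replicate 2, the highest of these, and by 3.81 in the 7-library fit, where that library stands alone. All 9 tested PYHIN genes, a family of nuclear and cytosolic DNA binders, rose as well, from 0.40 for Aim2 to 6.14 for Ifi205. Ifi211, at 3.21, 3.75 and 3.43 CPM with TGFβ, reached 204, 195 and 189.8 CPM. Counts within these families, and within the Oas, Ifit3, H2-Q, H2-T, Bcl2a1 and Ear families, are uncertain for single members, because near-identical copies can share reads and the handling of such reads is not given in the sources used here.

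Genes for presentation on MHC class I rose without exception, all 23 of 23 with a median of 0.92; in the 7-library fit 19 were called. Nlrc5, the transactivator of class I genes, was at 0.969, 0.84 and 1.18 CPM with TGFβ and at 22.8, 22.3 and 21.6 CPM with Pam3+TGFβ, a log2 fold change of 4.48 (adjusted p 1.01e-18, SE 0.14). The abundant heavy chains H2-K1 and H2-D1 rose by 0.89 and 0.36 and B2m by 0.66. Tap1, a chain of the peptide pump, rose from 35.7, 36.0 and 35.1 to 191, 191 and 191 CPM, by 2.42 (adjusted p 9.86e-20, SE 0.066), and the immunoproteasome genes Psmb8, Psmb9 and Psmb10 by 0.83, 1.11 and 0.56. The general chaperones of the pathway, Canx and Pdia3, moved least, at 0.17 and 0.22.

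Class II genes were divided. The chains H2-Ab1, H2-Aa and H2-Eb1 rose by 0.70, 0.54 and 0.53 from means of 10.6, 6.42 and 3.45 CPM, and the invariant chain Cd74 by 0.98. H2-DMa and H2-DMb2, which load peptide onto class II, fell by 0.66 and 0.72, and the transactivator Ciita was not called at 0.31. Of 12 costimulatory and checkpoint genes 7 rose and 2 fell. Icam1 rose by 1.90, from 87.2 ± 1.44 to 325 ± 13.9 CPM (SD, n = 3), and Cd274, the gene of PD-L1, by 0.98. Cd86, a classical marker of activation, was not called, at 6.48, 5.63 and 5.84 CPM with TGFβ and 5.29, 5.27 and 5.44 CPM with Pam3+TGFβ. Vsir, the inhibitory ligand VISTA, fell by 1.15, from 126, 124 and 132 to 60.2, 57.1 and 55.5 CPM, and Cd83 by 1.48.

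Of 36 inflammasome and cell death genes tested, 23 rose and 3 fell, with a median of 0.27. Nlrp3, the sensor primed by NF-kB, rose from 63.4, 60.0 and 60.2 to 161, 135 and 145 CPM, by 1.26 (adjusted p 2.92e-13, SE 0.069). Casp4, the mouse caspase-11 that detects cytosolic LPS, rose by 2.30, whereas Casp1, Pycard and Gsdmd rose by 0.27, 0.40 and 0.41. Mlkl, the executioner of necroptosis, rose by 1.51 and the survival genes Birc3 and Cflar by 1.29 and 1.25. The BH3-only gene Bbc3 fell by 0.63.

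Of 14 tested genes for itaconate, nitric oxide, arginine and tryptophan, 9 rose and 4 fell, with a median of 0.91. Acod1, which makes itaconate from the TCA intermediate aconitate, was at 0.304, 0.642 and 0.655 CPM with TGFβ and at 150.3, 129 and 119 CPM with Pam3+TGFβ, a log2 fold change of 7.93 (adjusted p 1.52e-08, SE 0.29). Slc7a11, the cystine importer that feeds glutathione, rose from 143, 195 and 152 to 1337, 1003 and 1113 CPM, by 2.82 (adjusted p 5.93e-07, SE 0.16), and its partner Slc3a2 by 1.60. Ass1, which regenerates arginine, rose by 2.76 and Gch1, for the cofactor of nitric oxide synthase, by 1.78. Nos2 itself did not pass the filter on counts, with 3, 1 and 0 counts with TGFβ and 14, 14 and 8 with Pam3+TGFβ, at least 4.09-fold higher against the floor. Without the filter its adjusted p was 0.0818, which is not a call. Kmo, of the kynurenine pathway, fell by 1.06, and Odc1, the amino acid importer Slc7a5 and Kynu by 0.40, 0.33 and 0.16. In the 7-library fit, without a filter, and without TGFβ replicate 2, Pam3 replicate 1, Pam3 replicate 2 or Pam3+TGFβ replicate 1, the lower calls of the list numbered 2 in place of 4.

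Prostaglandin and leukotriene genes went both ways, with 4 of 14 synthesis genes higher and 6 lower, and 4 of 7 breakdown and receptor genes higher and 2 lower. Ptgs2, the inducible cyclooxygenase, had 0, 0 and 4 counts with TGFβ and 91, 60 and 79 with Pam3+TGFβ, a log2 fold change of 5.72 (adjusted p 1.48e-08, SE 0.59) that was 9.24 without TGFβ replicate 3, which held all the counts of its group, and 5.13 without TGFβ replicate 2. It was 9.31 in the 7-library fit, whose lone TGFβ library had no count. Ptges, the synthase for prostaglandin E2, rose by 1.95 and the receptor Ptger4 by 1.60. Hpgd, which breaks prostaglandins down, was at 7.25, 4.79 and 6.29 CPM with TGFβ and at 0.32, 0.803 and 0.949 CPM with Pam3+TGFβ, and fell by 3.11 (SE 0.28, adjusted p 1.37e-09). The constitutive cyclooxygenase Ptgs1 fell by 0.62, thromboxane synthase Tbxas1 by 0.41, and the leukotriene enzymes Alox5 and Ltc4s by 0.67 and 0.98. The list of 21 gave 8 higher and 8 lower, and its median of 0.23 became -0.12 with Ptgis, which was not called and near no counts, at its bound. The median therefore has no settled sign.

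Of 28 oxidant genes tested, 18 rose and 1 fell, with a median of 0.32, and in the 7-library fit 11 rose and none fell. Cybb, the catalytic subunit of the phagocyte NADPH oxidase, rose by 1.06, from 1758 ± 109 to 3658 ± 91.7 CPM (SD, n = 3). Sod2, an NF-kB target in mitochondria, rose from 187, 199.5 and 178 to 720.2, 694 and 684 CPM, by 1.89 (adjusted p 3.32e-18, SE 0.061). The NRF2 targets Hmox1, Srxn1 and Txnrd1 rose by 1.27, 1.04 and 0.95, but Gclc, at -0.06, was not called. In metal handling 9 of 17 genes rose and 3 fell (5 with upper-quartile scaling). Fth1, ferritin heavy chain, rose by 1.17 to 10333 CPM, one of the most abundant messages. Slc40a1, ferroportin, the only known iron exporter, fell by 1.70, from 12.6, 11.6 and 11.0 to 3.32, 3.69 and 3.82 CPM. Lcn2, which withholds bacterial siderophores, rose by 3.73 on the log2 scale to only 3.72 CPM, a log2 fold change that was 3.05 in the 7-library fit.

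Several receptors for bacterial patterns rose, and the mannose receptor fell. Of 53 tested genes 28 rose and 12 fell, or 7 in the 7-library fit, with a median of 0.39. Marco, the class A scavenger receptor of alveolar macrophages, was at 119, 130.5 and 120.4 CPM with TGFβ and at 555, 599 and 551 CPM with Pam3+TGFβ, a log2 fold change of 2.20 (adjusted p 6.46e-18, SE 0.072). Msr1 rose by 1.09 and Stab1 by 3.31. Clec4e, the gene of Mincle, which senses mycobacterial cord factor, rose from 18.5, 20.8 and 18.4 to 316, 263 and 268 CPM, by 3.87 (adjusted p 2.77e-08, SE 0.15), and Clec4d, its partner, by 2.06. The mannose receptor Mrc1 fell by 0.63, from 970.3 ± 7.16 to 625 ± 11.4 CPM (SD, n = 3).

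Of 9 genes for clearing apoptotic cells 2 rose and 3 fell. Itgb5 fell by 1.15, from 323, 319 and 324 to 139.6, 149 and 147 CPM, and the bridging protein genes Pros1 and Mfge8 by 0.62 and 0.15, while the receptors Axl and Mertk were not called at -0.10 and 0.03. Complement factor B, Cfb, rose by 3.16, from 73.7 ± 4.17 to 657 ± 6.02 CPM, and C3 by 0.87. Itgam, the CD11b chain of complement receptor 3 that alveolar macrophages keep low, rose from 36.6, 40.2 and 39.4 to 111, 97.3 and 96.4 CPM. Nod2 rose by 1.82, the formyl peptide receptors Fpr1 and Fpr2 by 1.14 and 1.32, and Trem2 fell by 0.55.

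Alveolar macrophage identity genes mostly fell, by modest amounts. Of 39 genes 23 fell and 11 rose, with a median of -0.22 (-0.28 with upper-quartile scaling), and in the 7-library fit 21 fell and 7 rose. Siglecf was at 307, 289 and 305 CPM with TGFβ and at 149.6, 152 and 159 CPM with Pam3+TGFβ. Each value with Pam3 was far below each value without, and it fell by 0.97 (SE 0.057, adjusted p 2.82e-13). Pparg, the master regulator of these cells, fell by 0.39, from 225, 229 and 221 to 170.0, 176 and 169 CPM. Cebpa fell by 0.84, Klf4 by 0.51 and Bhlhe40 by 0.45, but Bhlhe41 rose by 0.34.

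The surface and secreted members showed the same mixture. Krt19, an epithelial-type gene of these cells, fell by 1.35, from 42.8 ± 2.41 to 16.8 ± 0.607 CPM (SD, n = 3), the ribonuclease Ear2 by 0.87, Cdh1 by 0.61 and Cd2 by 1.47. Car4 went the other way, from 788, 799.9 and 735 to 1551, 1595 and 1441 CPM, a log2 fold change of 0.98 (adjusted p 3.9e-13, SE 0.059). In this list only Marco rose by more. Lpl rose by 0.48 and Cd9 was not called at -0.01. Fabp4, a lipid carrier of lung-resident cells, was near 0 in both groups, at 0.166, 0.0741 and 0.157 and 0.233, 0.107 and 0.203 CPM.

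Genes of the TGFβ pathway, whose ligand both groups received, gave 11 higher and 9 lower of 34 tested, with a median of 0.08, against 9 and 11 with upper-quartile scaling and 6 and 5 in the 7-library fit. Smad3, which carries the TGFβ signal, was called at -2.06 (adjusted p 0.0469) from low levels of 0.221, 0.148 and 0.21 against 0.0291, 0.107 and 0 CPM. Id3, a target of BMP and TGFβ signals, fell by 1.86, from 117, 116 and 112 to 29.0, 35.6 and 30.4 CPM (adjusted p 4.23e-17), and the receptors Tgfbr1 and Tgfbr2 by 0.31 and 0.44. The feedback inhibitor Smad7 was not called at -0.03, and the corepressor gene Tgif1 rose by 0.93. Smad9, a BMP-activated SMAD that a rule on the largest decreases also picked, fell by 3.12 from 0.526, 0.593 and 0.943 to 0, 0.107 and 0.113 CPM, a call lost in the 7-library fit (adjusted p 0.0731).

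Lipid genes moved by small amounts with a few exceptions. Of 32 sterol and fatty acid synthesis genes 15 fell and 6 rose, with a median of -0.08. Idi1, of the isoprenoid steps, rose by 0.48, while Dhcr7, Scd1 and Fasn fell by 0.37, 0.36 and 0.31. Of 35 efflux and lipid use genes 8 rose and 12 fell, or 6 and 6 in the 7-library fit. Ch25h, the interferon-inducible maker of 25-hydroxycholesterol, was at 0.803, 1.68 and 1.44 CPM with TGFβ and at 47.0, 41.5 and 40.2 CPM with Pam3+TGFβ, a log2 fold change of 5.02 (adjusted p 6.89e-17, SE 0.15). Abca1, the main cholesterol exporter, rose by 1.47, from 149 ± 6.81 to 413 ± 56.4 CPM (SD, n = 3), whereas Abcg1 fell by 0.23. Dgat2, of triglyceride synthesis, rose by 1.36 and its counterpart Dgat1 fell by 0.68.

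Most genes of glycolysis rose, by small amounts. Of 25 glycolytic genes 18 rose and 2 fell, with a median of 0.39, and of 22 TCA cycle genes 4 rose and 4 fell, with a median of -0.05. Together they gave 22 higher and 6 lower, against 15 and 13 with upper-quartile scaling and 13 and 2 in the 7-library fit. Slc2a1, the glucose transporter GLUT1, rose from 102, 110.5 and 97.5 to 272, 261 and 259.7 CPM, by 1.35 (adjusted p 5.33e-15, SE 0.06), Hk2 by 1.09 and Pfkl by 1.13. Hif1a rose by 0.73 and Ldha by 0.47. Idh1 fell by 0.49 and Pdha1 by 0.34. Of 46 respiratory chain genes 5 rose (10.9%) and 4 fell (8.70%), and 3 rose and 10 fell with upper-quartile scaling. In the 7-library fit 2 rose, without TGFβ replicate 2, TGFβ replicate 3, Pam3+TGFβ replicate 1 or Pam3+TGFβ replicate 2 there were 3, and without Pam3+TGFβ replicate 2 there were 7 that fell.

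Of 45 lysosome and V-ATPase genes 17 rose and 8 fell, with a median of 0.10, but upper-quartile scaling gave 12 of each and the 7-library fit 11 and 4. The cathepsins Ctsz, Ctsb and Ctsc rose by 0.61, 0.43 and 0.34. Tfeb, which drives lysosome genes, fell by 0.49, while its relatives Tfe3 and Mitf rose by 0.46 and 0.57. Atp6v0d2, a macrophage-specific pump subunit, fell by 0.62.

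Most genes of DNA replication fell. Of 31 G1/S and replication genes 24 fell and 3 rose, with a median of -0.28. Mcm7, of the replicative helicase, fell by 0.73, from 53.5, 56.4 and 50.4 to 32.0, 34.1 and 30.6 CPM, and E2f2 by 0.91, from 82.0, 73.5 and 83.4 to 40.8, 42.6 and 43.8 CPM. In both genes each Pam3+TGFβ library was below each TGFβ library. Ccnd2 was an exception and rose by 0.75. Of 23 G2/M genes 8 fell and 3 rose, with a median of -0.05, and Mki67, at 574 ± 38.3 and 625 ± 36.2 CPM (SD, n = 3), was not called. Over the whole list of 62, 32 fell and 8 rose, or 2 in the 7-library fit. In the list of stress genes, 10 of 13 endoplasmic reticulum chaperones rose and 1 fell, led by Hspa5 at 0.63. Over its 26 genes 14 rose, or 7 in the 7-library fit.

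Proteases and matrix genes gave 14 higher and 3 lower of 27, with a median of 0.91. Mmp14, a membrane-bound collagenase, rose from 1.27, 2.54 and 0.812 to 52.6, 48.6 and 52.7 CPM, by 5.04 (adjusted p 7.8e-07, SE 0.30), or by 4.32 in the 7-library fit. Mmp13, a secreted collagenase, was at 1.69, 1.88 and 1.99 CPM with TGFβ and at 19.5, 13.5 and 14.1 CPM with Pam3+TGFβ, a log2 fold change of 3.08 (adjusted p 9.48e-15, SE 0.14). Mmp12, the macrophage elastase, rose by 1.82 and Plaur, the urokinase receptor, by 1.13. The tissue factor gene F3 rose by 2.03, to 3.67 ± 0.19 CPM (SD, n = 3), and Hbegf by 3.01.

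Purine signalling included the largest fitted change of the response. Adora2a, the adenosine receptor that restrains inflammation, had no count in any TGFβ library and 62, 56 and 72 counts with Pam3+TGFβ, at least 20.9-fold higher against the floor of 3 counts per library. Adora2b rose from 19.2, 21.3 and 16.7 to 89.9, 88.8 and 82.5 CPM, by 2.19 (adjusted p 2.74e-17, SE 0.078). Entpd1 and Nt5e, the ectoenzymes CD39 and CD73 that make adenosine from ATP, fell by 0.82 and 0.51, and Pde4b, which breaks down cyclic AMP, rose by 1.49. The list of 18 gave 5 higher and 6 lower, or 3 lower in the 7-library fit.

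**Figure D3:**
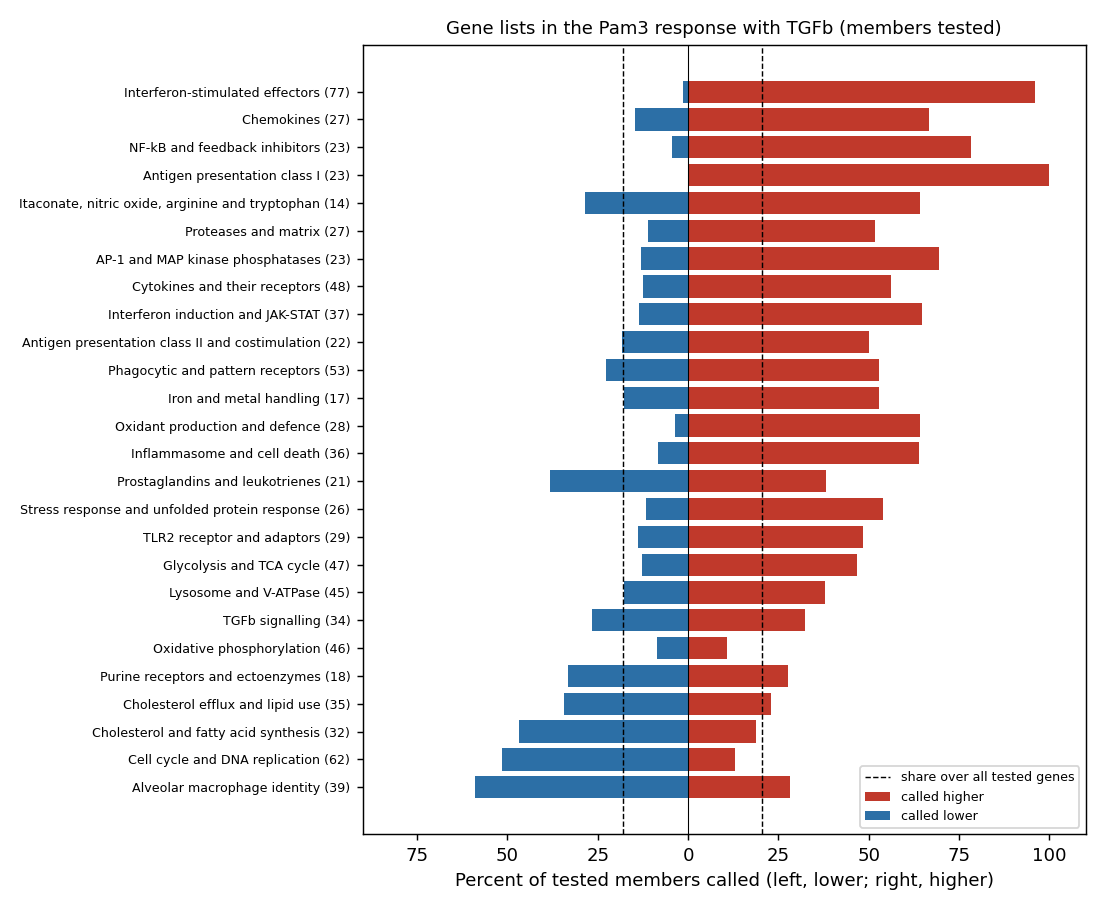
Percent of the tested members of each of 26 gene lists (number tested in brackets) that rose (red, to the right) or fell (blue, to the left) with Pam3 in cells kept in TGFβ, with dashed lines at the shares over all tested genes, 20.4% and 18.1%. Lists are ordered by median log2 fold change; class I presentation reaches 100% and interferon-stimulated effectors 96.1% on the right, and alveolar macrophage identity 59.0% and the cell cycle 51.6% on the left.

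Genes were also named by size alone. Among the 10 largest increases that met the rule on counts and spread, those not yet described were Apol9a, Il23r, Wfdc18 and Cd69. Il23r, the IL-23 receptor, had no count with TGFβ and 40, 36 and 48 counts with Pam3+TGFβ, at least 13.6-fold higher. Apol9a, an interferon-induced gene with close copies that make its counts uncertain, was at least 15.5-fold higher, and Wfdc18 at least 8.14-fold. Cd69, an early activation antigen that holds leukocytes in tissue, went from 0.0553, 0.0247 and 0.21 to 16.8, 14.2 and 13 CPM, by 7.20 (adjusted p 1.42e-14, SE 0.32), or by 8.41 without TGFβ replicate 3 and 9.02 in the 7-library fit.

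The 10 largest decreases by the same rule were smaller in size. Hes1, a Notch target and repressor, had 23, 36 and 31 counts with TGFβ and 0, 1 and 3 with Pam3+TGFβ, at least 9.93-fold lower against the floor (adjusted p 0.000431). Coro6, a coronin, fell by 2.64, from 15.6, 13 and 13.8 to 2.33, 2.84 and 1.67 CPM. Mn1, a transcriptional coactivator, fell by 2.60, from 8.05, 6.27 and 9.06 to 1.25, 0.75 and 1.81 CPM, and Crtac1 by 2.65. Efna1, an ephrin, was at least 5.16-fold lower and Cerkl fell by 2.62 (3.25 on the log2 scale without Pam3+TGFβ replicate 2), but both calls were lost in the 7-library fit (adjusted p 0.0793 and 0.192), and that of Cerkl also without TGFβ replicate 3 or Pam3+TGFβ replicate 3 (adjusted p 0.0742 and 0.0614). H1f3 is a linker histone whose messages mostly lack poly(A) tails, and the part of such RNA in its decrease was not tested. It was highest in the TGFβ libraries rich in such RNA, at 2.24, 0.642 and 1.83 CPM with TGFβ, and fell by 2.63. In the 7-library fit its log2 fold change was -1.36 (adjusted p 0.377), and the call was lost without Pam3+TGFβ replicate 1 or 3 (adjusted p 0.0597 and 0.0559).

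The response was last set beside that of the cells without TGFβ, 3 Pam3 against 3 untreated libraries, which shares no library with it. There 2697 genes (18.3%) were called. A test of the difference between the responses, with minus without TGFβ, called 2352 genes (15.9%). It was positive, called higher below, in 1516 (10.3%) and negative, called lower, in 836 (5.67%). Of the positive ones 1408 rose and 8 fell in cells with TGFβ. Of the negative ones 745 fell there and 8 rose, so a lower difference was mostly a deeper decrease. Differences of at least 1 on the log2 scale were 2.61% of genes higher and 0.637% lower. In the 7-library fit, where the TGFβ and the Pam3 group are 1 library each, 576 differences were higher and 226 lower.

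For interferon-stimulated effectors the difference was called higher in 70 of 77 and lower in 1, with a median of 1.75 against 0.00 over all genes. Cxcl10 was at 2.08, 3.22 and 1.88 CPM in untreated and 13.3, 12.4 and 8.99 CPM in Pam3 libraries, so the level reached with Pam3+TGFβ was the highest of the 4 groups. The difference of the log2 fold changes was 6.57 (SE 0.53, adjusted p 3.44e-05), or 7.52 without TGFβ replicate 2 and 5.57 in the 7-library fit. Irf7 followed the same order, with 5.47, 9.36 and 5.90 CPM in untreated and 57.0, 48.4 and 45.9 CPM in Pam3 libraries, and a difference of 2.45 (adjusted p 0.000256). For class I presentation the difference was higher in 17 of 23 and lower in none.

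In some genes, Cxcl10 among them, the larger step began from a level lower in TGFβ than in untreated libraries. Those that follow include Ifitm3, itself one of the interferon-stimulated effectors. Ccl2 was at 58.4, 67.4 and 67.5 CPM in untreated and 69.8, 69.2 and 73.2 CPM in Pam3 libraries, above the level reached with Pam3+TGFβ, yet the difference of the log2 fold changes was 5.60 (adjusted p 4.93e-15), or 6.27 in the 7-library fit. Ifitm3 was at 10.4, 11.7 and 9.41 CPM untreated and 13.5, 14.8 and 12.9 CPM with Pam3, also above its level with Pam3+TGFβ, with a difference of 5.89, or 6.65 without TGFβ replicate 3. Mmp13 was at 25.1, 29.9 and 28.1 CPM untreated and fell to 16.3, 18.8 and 18.7 CPM with Pam3, while it rose with TGFβ, and the difference was 3.70 (adjusted p 5.15e-13). Adora2a, without a count in the TGFβ libraries, was at 0.605, 1.06 and 0.855 CPM untreated and 1.72, 1.78 and 2.54 CPM with Pam3, so its response without TGFβ started from a level that the TGFβ libraries lacked.

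Decreases also differed. Siglecf, lower in cells without TGFβ, was at 34.3, 30.1 and 32.0 CPM untreated and 23.4, 27.1 and 27.5 CPM with Pam3, and the difference was -0.66 (SE 0.084, adjusted p 1.67e-06). Car4 rose in both settings, from 421, 482 and 439.7 to 841, 803 and 861 CPM without TGFβ, and its difference of 0.08 (SE 0.082) was not called (adjusted p 0.596).

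The difference was also called in genes of other lists. Over all genes it was higher in 10.3% and lower in 5.67%. Calls over all genes were 9.62% higher and 8.66% lower without TGFβ, and 20.4% and 18.1% with it. Lysosome and V-ATPase genes gave 1 higher and 15 lower calls without TGFβ, and 17 and 8 with it (12 and 12 with upper-quartile scaling). Those 8, or 17.8%, are near the share of all genes. The difference was higher in 17 of 45 and lower in 1. Of 23 G2/M genes 15 fell without TGFβ and 8 with it, with a higher difference in 8 and a lower in none, whereas among 31 G1/S and replication genes the difference was lower in 9 and higher in 1. Of 39 alveolar macrophage identity genes 18 fell without and 23 with TGFβ, against 8.66% and 18.1% of all genes. The difference was lower in 10 and higher in 5 of them, against 5.67% and 10.3% of all genes.

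**Figure D4:**
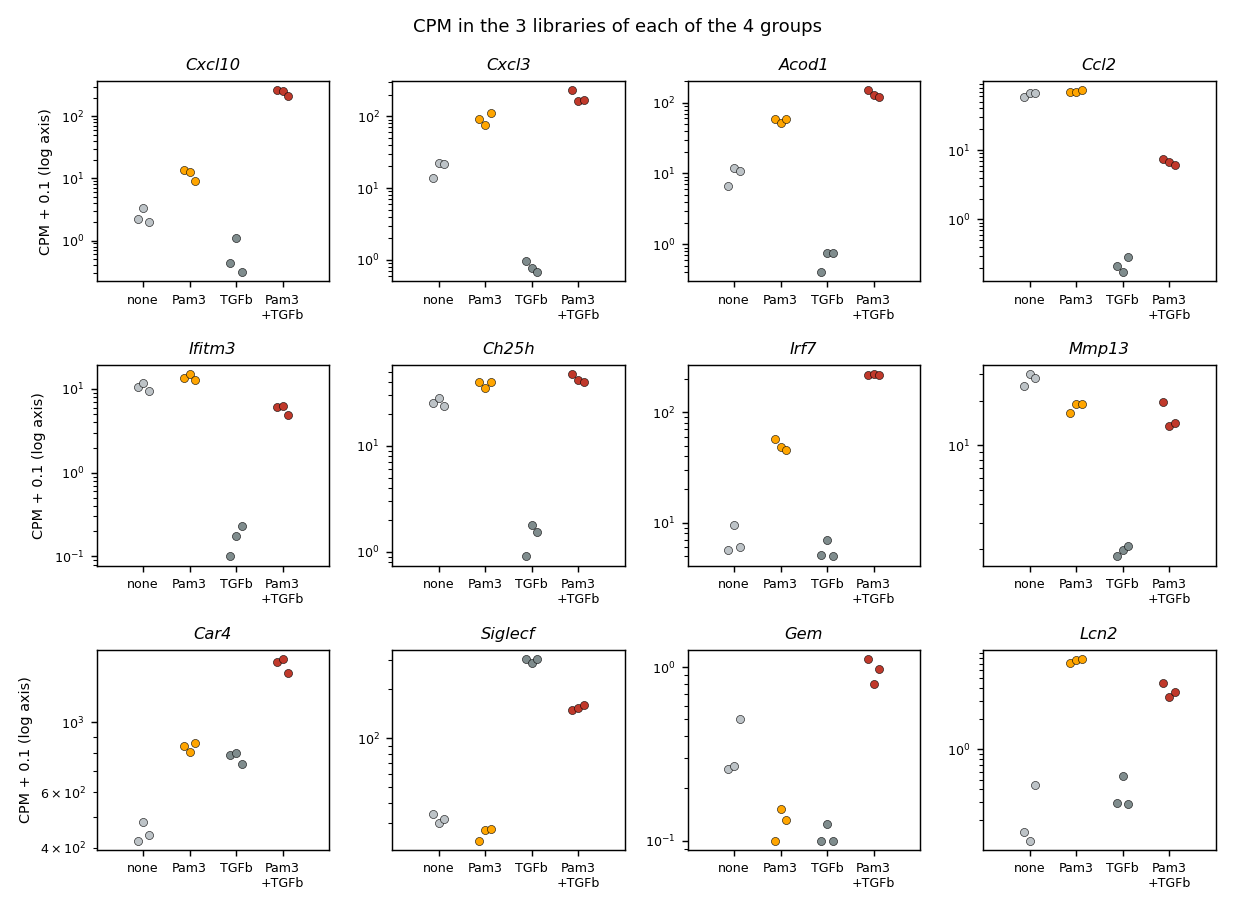
CPM plus 0.1 (log axes) of 12 genes in the 3 libraries of each of the 4 groups, from left to right untreated (marked none), Pam3, TGFβ and Pam3+TGFβ, each point 1 library. Cxcl10 and Irf7 are highest with Pam3+TGFβ, Ccl2 and Ifitm3 start far lower with TGFβ and end below the cells without it, and Siglecf is high with TGFβ and lower once Pam3 is added.

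Markers were used to check the label of the cells. All 10 macrophage markers were present, with summed levels of 17115 to 18069 CPM in TGFβ and 26330 to 26992 CPM in Pam3+TGFβ libraries, and 8 of them rose. Lyz2 alone made most of the sum in TGFβ replicate 2, at 1.75% of counts. It did so as well in the Pam3+TGFβ libraries, at 2.28% to 2.35%. The 10 alveolar macrophage markers summed to 8819 to 9353 and to 8496 to 8830 CPM, with 3 higher and 6 lower. Neutrophil markers summed to 12 to 12.8 and to 7.27 to 8.43 CPM, with Mpo and Retnlg at 0 in both groups, and of 6 tested 1 rose and 1 fell. The sums were at most 1.55 CPM for lymphocyte, 1.15 CPM for mast cell, 0.889 CPM for red cell and 2.91 CPM for fibroblast markers. Of 3 fibroblast markers tested 1 rose and none fell. Hepatocyte and fetal liver markers summed to 5.90 to 6.56 and to 8.49 to 10.5 CPM, with Ttr and Hnf4a at 0, and of 2 tested 1 rose. Dendritic cell markers summed to 1900.1 to 1964 and to 2139 to 2247 CPM, nearly all of it from Sirpa, a receptor that macrophages also carry, which rose from a mean of 1904 to 2169 CPM. Clec9a fell from 20.5 to 15.5 CPM, and Ccr7, Cd209a and Siglech were at 0. Endothelial markers summed to 181 to 197 and to 121 to 137 CPM with Emcn, Cldn5 and Erg at 0, and lung epithelial markers to 393 to 404 and to 257 to 266 CPM with Sftpc, Sftpa1, Sftpd, Scgb1a1 and Nkx2-1 at 0. Most of the endothelial sum was Vwf, which fell from a mean of 184 to 127 CPM, while Kdr rose from 0.082 to 0.526 CPM. Most of the epithelial sum was Cdh1, the gene of E-cadherin, which fell from 394 to 258 CPM, and Ager fell from 1.53 to 0.741 CPM. The part of these markers in the results was not tested.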

How the data were processed

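RNA of 12 libraries in 4 groups of 3 was made with a stranded poly(A) kit, per the labels' protocols, and mapped to GRCm39. The authors deposited raw counts per gene, whole numbers for 40847 genes, of which 17090 had no count in any library. The submitters' processing notes name bcl2fastq 2.20.0, FastQC 0.11.7, Bowtie2 2.4.1, featureCounts of Subread 2.0.0, DESeq2 1.36.0 and R 4.2.1. Bowtie2 does not split reads over introns, so reads across exon junctions may be lost. The annotation, the strand setting and the handling of reads with several matches are not given in the sources used here. A second deposited table of normalized values was not used.

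Counts as deposited were tested with the quasi-likelihood test of edgeR 4.0.16 (limma 3.58.1, R 4.3.3), with TMM scaling, filterByExpr at a minimum count of 10, 4 group means over all 12 libraries and Benjamini-Hochberg adjustment over the 14749 genes tested; a gene was called at an adjusted p under 0.05. All adjusted p-values printed come from this test unless another fit is named. CPM values use the TMM-scaled library sizes, and SD is over 3 libraries. Where a group had at most 3 counts in every library, the change is a lower bound against 3 counts per library, which covers counting error only. The difference of the responses is the interaction of the same fit. Alternatives were DESeq2-type size factors, upper-quartile scaling, the Wald test of DESeq2 1.42.0, 2 other filters, a fit of only the libraries compared, the replicate block, leaving out each library, and, chosen after the data were seen, a term for the level of tailless RNAs and the 7-library fit. The test was checked on simulated data.

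Genes were named by rule: the 10 most changed called genes per direction whose groups did not overlap and whose higher group had 10 or more counts throughout, 5 per direction for the interaction, up to 2 per role of each list, and a short fixed list. A few genes are not reported here. Other members named were chosen after their values were seen. The members, lists and markers were chosen with earlier results of these data known, so no list is independent support. Start sites and promoters come from GENCODE M39 on GRCm39, which 13486 of the tested genes (91.4%) matched by symbol.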

Additional observations from a re-analysis of the deposited data

Results flagged for a closer look

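Of 43 tested genes picked by size, by the test of the difference or in advance by name, 27 had a Pam3 response that differed between cells with and without TGFβ. The difference was positive in 20 and negative in 7. The 10 picked by that test had to be called, so nothing is read from this count. Over all genes tested 15.9% were called. The values below are differences of the log2 fold changes, with minus without TGFβ, called by edgeR's quasi-likelihood test of the interaction.

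Among pathway and cytokine genes the difference was 1.30 for Tlr2, 1.39 for Nfkbia, 2.24 for Tnfaip3, 2.04 for Il1b, 5.06 for Il6 and 1.97 for Socs3. For the chemokines it was 6.57 for Cxcl10 and 5.81 for Cxcl3. For interferon genes it was 2.45 for Irf7, 3.37 for Ifit1 (2.65 in the 7-library fit) and 5.89 for Ifitm3. The 7-library fit holds 1 TGFβ and 1 Pam3 library. Acod1 differed by 5.41, Cd69 by 4.73, Ptgs2 by 3.63, Marco by 1.58, Abca1 by 0.62 and Mki67 by 0.29. Without TGFβ replicate 3 the differences of Ptgs2 and Cd69 were 7.15 and 5.93, in the 7-library fit 7.03 and 5.98, and that of Ptgs2 was 3.04 without TGFβ replicate 2. The differences of 7.71 for Adora2a, 6.77 for Wfdc18 and 9.14 for Gem rest on TGFβ libraries with no or almost no counts, so their size depends on the prior count of the fit. That of Gem was 10.98 without TGFβ replicate 2, 9.96 without Pam3 replicate 2 and 10.65 in the 7-library fit. In the 7-library fit the calls of Il1b, Cxcl3, Acod1, Abca1 and Mki67 were lost (adjusted p 0.224, 0.0718, 0.0671, 0.302 and 0.557), with differences of 1.84, 5.79, 5.02, 0.57 and 0.17. That of Abca1 was also lost without TGFβ replicate 3 (adjusted p 0.0563), and that of Mki67 in 4 fits that left out a library (adjusted p 0.0707 to 0.118).

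Negative differences, all in genes with a negative log2 fold change with TGFβ, were found for Siglecf (-0.66), Crtac1 (-1.38), Amer2 (-4.45), Prr36 (-2.57), Arhgef17 (-2.38), Mylk (-2.33) and Cldn1 (-2.28). All but that of Siglecf were lost in the 7-library fit, with adjusted p of 0.523 for Crtac1, 0.321 for Amer2, 0.725 for Prr36, 0.403 for Arhgef17, 0.469 for Mylk and 0.231 for Cldn1. The differences there were -0.97, -5.34, -1.33, -1.58, -2.02 and -2.30 in the same order. That of Amer2 was -6.32 without Untreated replicate 3 and -3.54 without Pam3 replicate 2. Among 12 fits with 1 library omitted, 8 lost the call of Crtac1 (adjusted p 0.0526 to 0.114), 3 that of Amer2 (0.0552 to 0.15), 10 that of Prr36 (0.0521 to 0.161) and 10 that of Mylk (0.0649 to 0.184). Those of Prr36 and Mylk were also lost without a filter (adjusted p 0.0803 and 0.0592) and with the covariate for RNAs without poly(A) tails (0.0702 and 0.0644).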

How the results depend on the processing

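Over 64 counts and 1341 alternative values, 1287 stayed within 1.5 times the main count and 54 did not. Upper-quartile scaling called 2477 genes higher and 3489 lower, and omitting Untreated replicate 1 gave 2845 and 2865, so that more fell than rose. The balance of calls also turned for TGFβ signalling (9 higher, 11 lower) and the respiratory chain (3 higher, 10 lower) with upper-quartile scaling, and in the 7-library fit for the respiratory chain (2 higher, 4 lower) and purine genes (5 higher, 3 lower). The replicate block lost the calls of the differences of Prr36 and Mylk (adjusted p 0.0686 and 0.0696). Among 166 named genes, 3399 of 3445 alternative values of the response with TGFβ kept direction and call, 40 lost the call and 6 gained it, all in 16 genes. For the interaction 3110 of 3272 did, 149 lost it and 13 gained it, in 56 genes. Leaving out each library gave 2465 to 3323 higher and 2391 to 2865 lower calls. Whether the replicate numbers pair the TGFβ and Pam3+TGFβ libraries is not known. Deviations from a mean of 3 libraries depend on each other, so their correlations cannot settle it. The deviations of same-numbered ones correlated at -0.27, -0.27 and 0.27. Those of same-numbered untreated and Pam3 libraries correlated at 0.45, -0.21 and 0.40. The fit with the replicate block called 3029 higher and 2685 lower and moved 1 count by over 1.5 times, that of TLR2 genes that fell (2 in place of 4). The fit of the 7 libraries low in RNAs without poly(A) tails, with fewer samples and only 1 TGFβ and 1 Pam3 library, called 3370 genes (1825 higher, 1545 lower), 802 differences (576 higher, 226 lower) and 1173 genes without TGFβ (744 higher, 429 lower). By list, its lower calls that moved were 0 for TLR2 and oxidant genes, 2 for interferon induction, itaconate and glycolysis with the TCA cycle, 3 for purine genes, 4 for lysosome genes, 5 for TGFβ signalling, 6 for cholesterol efflux and 7 for phagocytic receptors. Its higher calls that moved were 2 for the respiratory chain and the cell cycle, 6 for TGFβ signalling, 7 for alveolar macrophage identity and stress, 11 for oxidant and lysosome genes and 13 for glycolysis with the TCA cycle. Upper-quartile scaling gave 2 lower calls for NF-kB, 5 for metal handling, 9 for interferon induction, 10 for the respiratory chain and 13 for glycolysis with the TCA cycle, and 3 higher calls for the respiratory chain. Requiring 10 counts in every library left 10 higher chemokine calls. Without a filter the lower calls were 2 for TLR2 and itaconate and 5 for lysosome genes. Leaving out each library moved the lower calls of the TLR2 list between 1 and 4, of the itaconate list between 2 and 4 and of the respiratory chain between 3 and 7, and the higher calls of the respiratory chain between 3 and 6. The cause of these shifts was not tested. Depth limits genes such as Ifnb1, Il23a, Nos2 and Ccl5, whose counts did not pass the filter, and a p above the threshold does not show that a gene did not change.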

Other observations

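Genes outside the lists, chosen here after their values were seen, included growth factors. Ereg, which encodes the EGF receptor ligand epiregulin, was at 0.387, 0.37 and 0.262 CPM with TGFβ and at 40.3, 30.0 and 32.3 CPM with Pam3+TGFβ, a log2 fold change of 6.64 (adjusted p 9.55e-18, SE 0.20) by edgeR. Its relative Areg, the gene of amphiregulin, rose by 2.96, beside Hbegf at 3.01. Inhba, the gene of activin A, a ligand of the TGFβ family, was at 1.88, 2.05 and 1.86 CPM with TGFβ and at 149, 91.6 and 105 CPM with Pam3+TGFβ, and rose by 5.89 (SE 0.21, adjusted p 1.59e-09). The activin antagonist follistatin, Fst, rose by 1.70. Pdgfb, Lox, which cross-links collagen, and the Notch ligand Jag1 rose by 3.37, 4.93 and 2.03, while Hes1, a Notch target, was lower.

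Surface receptors changed in both directions. Ptafr, the receptor for platelet-activating factor, Gpr84, a receptor for medium-chain fatty acids, and the ectoenzyme Cd38 rose by 2.52, 2.42 and 1.77. The receptors for vasoactive intestinal peptide, Vipr1 and Vipr2, fell by 1.88 and 1.15, the decoy-like complement receptor C5ar2 by 1.32 and the neonatal Fc receptor Fcgrt by 1.10.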
